A study of Mus musculus with 19 samples.

Results

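The miR-23, miR-27 and miR-24 family of microRNAs (miRNAs) was examined in mouse sperm small RNA. Its 6 hairpin genes, Mir23a, Mir27a, Mir24-2, Mir23b, Mir27b and Mir24-1, were taken by name from the GENCODE annotation, and reads of 20–24 nt that matched these hairpins on the sense strand were counted. All 6 had such reads, out of 1531 annotated hairpins that did. The 19 libraries came from sperm of the cauda epididymis of wild-type C57BL/6J males that were 8 weeks old at the start. The mice were gavaged daily for 4 weeks with corn oil vehicle (control) or with dicyclohexyl phthalate (DCHP, a plasticizer) at 10 mg/kg. Traditional RNA-seq was made from 5 control and 5 DCHP samples. PANDORA-seq, in which the RNA is first treated with the demethylase AlkB and with T4 polynucleotide kinase so that modified fragments can be ligated and copied, was made from 4 control and 5 DCHP samples. Before RNA extraction the sperm were strained and treated with a buffer that lyses somatic cells. The treatment label names DCHP for every sample, so control and DCHP status came from the sample titles. The study describes its sperm samples as biological replicates of mice, without saying whether each is 1 mouse or a pool.

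Each of the 2 clusters is a row of 3 hairpins that is known to be made as 1 primary transcript, so that a miR-23, a miR-27 and a miR-24 come from the same RNA. The hairpins are cut by Drosha and Dicer, and an arm of each, usually the 3p arm in this family, is kept in the Argonaute protein while the other is mostly lost. The family is known for high levels in the endothelium and other vascular cells. MiR-27 represses the adipogenic factor PPARγ, miR-23 represses glutaminase, and miR-24 represses factors of the cell cycle and the DNA damage response.

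The Mir23a cluster lies on the plus strand of chromosome 8 of GRCm38, with Mir23a at chr8:84208518-84208592, Mir27a at chr8:84208672-84208758 and Mir24-2 at chr8:84208815-84208921, separated by 79 and 56 bp. Mir23a and Mir27a overlapped no other annotated gene, and Mir24-2 overlapped Mir3074-2 on the opposite strand and the first bases of the lincRNA Gm26532. The Mir23b cluster lies on the plus strand of chromosome 13, with Mir23b at chr13:63300484-63300557, Mir27b at chr13:63300712-63300784 and Mir24-1 at chr13:63301208-63301275, separated by 154 and 423 bp. This cluster is inside the protein-coding gene 2010111I01Rik on the same strand, where Mir23b is intronic and Mir27b and Mir24-1 overlap annotated exons. It is also inside an intron of Fancc on the opposite strand, and Mir24-1 overlaps Mir3074-1 there.

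The mature sequences show what the reads can and cannot tell apart. The guide (3p) and passenger (5p) strands below are from RefSeq for GRCm38.p6, 5′ to 3′, with the seed (bases 2 to 8) in capitals. MiR-128-3p is shown because its first 8 bases are bases 2 to 9 of miR-27a-3p.
miR-23a-3p: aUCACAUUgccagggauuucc
miR-27a-3p: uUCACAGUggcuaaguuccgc
miR-27b-3p: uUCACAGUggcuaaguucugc
miR-24-3p (Mir24-1 and Mir24-2): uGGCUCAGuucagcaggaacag
miR-27a-5p: aGGGCUUAgcugcuugugagca
miR-27b-5p: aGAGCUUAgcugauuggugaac
miR-24-1-5p: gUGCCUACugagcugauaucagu
miR-24-2-5p: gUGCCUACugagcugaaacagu
miR-128-3p: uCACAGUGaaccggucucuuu
MiR-27a-3p and miR-27b-3p share their seed and differ by 1 base, C19U counted from the 5′ end of miR-27a-3p. The mature miR-24-3p is identical from both loci, so its reads were divided equally between Mir24-1 and Mir24-2, and the pair is given together below. Their 5p arms share a seed and differ further on, so the 5p arms are the only reads that separate the miR-24 loci. MiR-23b-3p is the guide strand of Mir23b.

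Levels are given as reads per 1000000 miRNA reads (RPM), where miRNA reads are the 20–24 nt reads of the 453 hairpins of which at least 50% of reads were 20–24 nt long. A read is a whole mature strand, so levels were not divided by length, and how well each strand was ligated was not measured. The libraries held 21588335 to 56506344 reads. Traditional libraries held 959446 to 8146852 miRNA reads, 3.96% to 15.6% of all reads. PANDORA-seq libraries held 5816 to 46900 miRNA reads, 0.0229% to 0.106% of all reads, so 3 reads corresponded to 64.0 to 516 RPM and most member values there rest on few reads. The spermatogenic markers Mir34b and Mir34c were present in every library, but the epididymal epithelium list summed to 6024 to 47539 RPM in the traditional libraries, against 767 to 6542 for the spermatogenic list, of which Mir449b and Mir449c had 0 reads in every PANDORA-seq library. The smooth muscle list (Mir143, Mir145a and the miR-1 and miR-133a genes) summed to 28927 to 83780 RPM in the traditional libraries, nearly all of it Mir143 (27566 to 78534). In the PANDORA-seq libraries it summed to 11004 to 89616 RPM. The red blood cell list summed to 394 to 780 and the leukocyte list to 65.4 to 327 RPM in the traditional libraries. Mir122, the liver miRNA, made up 1.30% to 43.2% of miRNA reads. Mir126a, which lies in an endothelial gene, ranged from 323 to 7749 RPM in the traditional libraries. Control replicates 1 and 2 were the 2 highest of these for both, with 24.1% and 43.2% Mir122 and 4122 and 7749 RPM Mir126a. In PANDORA-seq, control replicate 2 was the highest for both, with 27.5% and 5595 RPM. The results that rest on these libraries are given with these values.

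Mir27b was the most abundant member. In the traditional control libraries it was at 2493, 3830, 912, 879 and 1208 RPM (replicates 1 to 5), and in the traditional DCHP libraries at 1179, 1183, 1919, 1468 and 1175. It took 55.6% ± 9.82 (SD, n = 5) of the reads of the 6 members in traditional control and 51.6% ± 5.81 (n = 5) in traditional DCHP libraries. Its rank among the 453 hairpins was between 27 and 60 in the 10 traditional libraries.

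The other members on separate reads, Mir23b, Mir23a and Mir27a, had levels close to each other. Mir23b was at 444, 532, 343, 328 and 413 RPM in traditional control and at 356, 329, 396, 395 and 449 in traditional DCHP libraries. Its means were 412 ± 82.4 and 385 ± 45.5 RPM (SD, n = 5 each). Mir23a was at 258, 206, 403, 365 and 367 in traditional control and at 395, 260, 372, 406 and 635 in traditional DCHP libraries. Mir27a was at 453, 538, 161, 266 and 293 in traditional control and at 355, 353, 358, 379 and 305 in traditional DCHP libraries. Control replicate 2 was the highest of the 5 control libraries for Mir27a and the lowest for Mir23a.

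Mir24-1 and Mir24-2 together were the lowest in 8 of the 10 traditional libraries. The pair was at 291, 469, 63.4, 44.6 and 103 RPM in traditional control and at 70.9, 140, 173, 142 and 142 in traditional DCHP libraries. It was below Mir27a and Mir23b in each of the 10 traditional libraries, and above Mir23a in control replicates 1 and 2. The control libraries spanned a wider range than the DCHP libraries, and replicates 1 and 2 were the high ones.

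**Figure D1:**
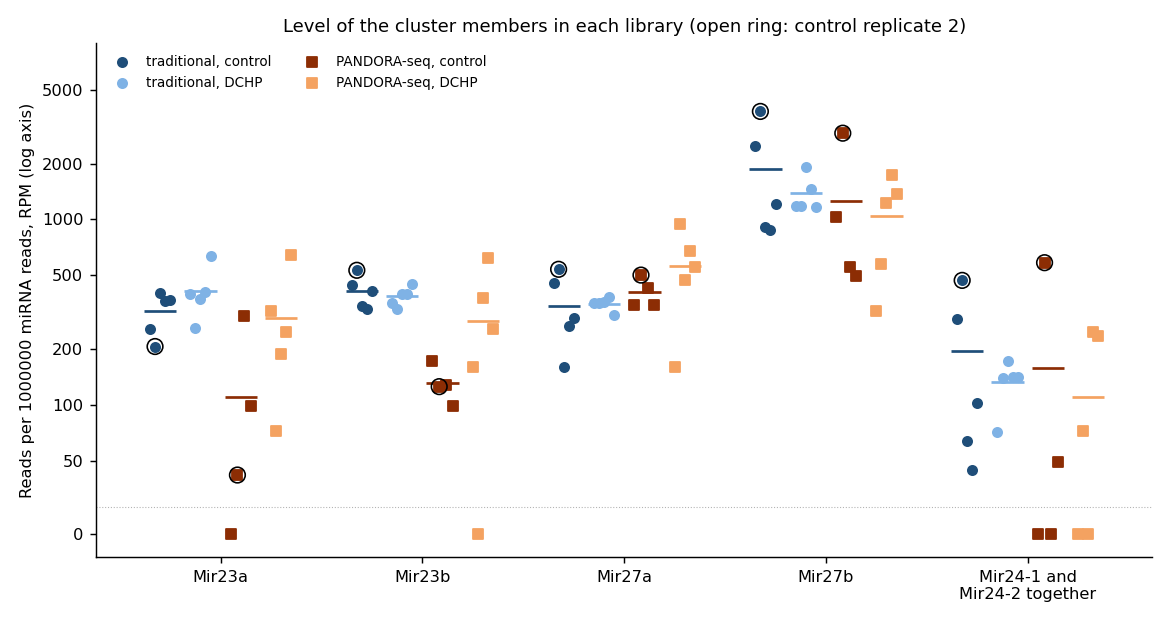
Level of Mir23a, Mir23b, Mir27a, Mir27b and the 2 miR-24 loci together in each of the 19 libraries, as reads per 1000000 miRNA reads on a log axis, with libraries at 0 drawn below the dotted line, group means as bars and control replicate 2 ringed. Mir27b is the highest member in every traditional library, the groups overlap, and the ringed libraries are high for Mir27b and the miR-24 loci and low for Mir23a. In PANDORA-seq control libraries Mir23a had 0 to 7 reads each.

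In PANDORA-seq the members had few reads. Mir27b had 6, 35, 13 and 10 reads in the 4 control libraries and 4, 8, 13, 28 and 64 in the 5 DCHP libraries. Mir27a had 2, 6, 10 and 7 reads in control and 2, 13, 5, 11 and 26 in DCHP libraries. Together these gave 181 reads of Mir27b and 82 of Mir27a over the 9 libraries. Mir23a had 0 to 7 reads in control and 1 to 30 in DCHP libraries, and Mir23b had 1 to 3 in control and 0 to 12 in DCHP libraries. The miR-24 loci together had 8 reads in control, 7 of them in replicate 2, and 16 in DCHP libraries, 11 of them in replicate 5. The 6 members summed to 2055 ± 1426 RPM in PANDORA-seq control (SD, n = 4) and 2289 ± 1032 in PANDORA-seq DCHP (n = 5), beside 3132 ± 1605 and 2667 ± 381 (n = 5 each) in the traditional groups. Without PANDORA-seq control replicate 2, which was at 4175 RPM, the PANDORA-seq control mean was 1349 ± 237 (n = 3).

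The paralogs were compared within libraries, which removes depth and the choice of total. Mir27b exceeded Mir27a in 10 of 10 traditional libraries, by 4.39-fold on average (geometric mean, range 3.30 to 7.11, two-sided exact sign-flip test over libraries, p = 0.00195, adjusted p = 0.00651 over 10 ratio tests). In PANDORA-seq, Mir27b exceeded Mir27a in 8 of 9 libraries, by 1.96-fold on average (range 0.630 to 5.46, exact p = 0.0156, adjusted p = 0.0313). The adjusted p in PANDORA-seq rose to between 0.0521 and 0.0625 without control replicate 1, control replicate 2, DCHP replicate 1, DCHP replicate 3, DCHP replicate 4 or DCHP replicate 5. The ratio of Mir27b to Mir27a was 0.452-fold as high in PANDORA-seq as in traditional DCHP libraries (permutation test, exact p = 0.00794, which no split of 5 and 5 libraries can go below, adjusted p = 0.0794 over 20 tests), and 0.453-fold in the controls (exact p = 0.0635, adjusted p = 0.254), so neither difference passed the adjustment with each exposure taken alone and libraries unpaired. With same-numbered libraries as pairs and both exposures together, a test added after seeing the data, the ratio was lower in PANDORA-seq in 9 of 9 pairs, 0.443-fold on average (exact sign-flip p = 0.00391, adjusted p = 0.00977 over 5 ratios, and p of at most 0.00781 without any 1 pair). By construction, the 0.5 read added draws ratios of few reads toward 1.

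The miR-23 paralogs did not share that order. Mir23b was 1.12-fold of Mir23a on average over the traditional libraries and above it in 5 of 10 (range 0.707 to 2.58, exact sign-flip p = 0.398, adjusted p = 0.569). The highest ratios, 1.72 and 2.58, were in control replicates 1 and 2. In PANDORA-seq the mean ratio was 0.987 and it was above 1 in 4 of 9 libraries (exact p = 0.969, adjusted p = 1.0).

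The miR-24 loci were separable by their 5p arms alone. In the traditional libraries 759 reads were from the 5p arm of Mir24-2 and 29 from that of Mir24-1. Control replicate 2 held 458 and 14 of these, which leaves 301 and 15 in the other 9 libraries. Mir24-2 was the higher in 10 of 10 libraries, and the ratio of Mir24-1 to Mir24-2 was 0.0468 on average with 0.5 read added to each (range 0.0133 to 0.259, exact sign-flip p = 0.00195, adjusted p = 0.00651). With 5 reads added in place of 0.5, the log2 ratio was −2.55 in place of −4.42 and the adjusted p was the same. The exact p could not change there, since adding the same number to both counts keeps the order in all 10 libraries. PANDORA-seq gave 1 such read, from Mir24-2 in DCHP replicate 4, so the loci could not be compared there. These reads count passenger strands, and the source of miR-24-3p cannot be told from them.

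Neighbours were unequal in the Mir23b cluster in both methods. Mir23b was 0.271-fold of its neighbour Mir27b in the traditional libraries (lower in 10 of 10, exact p = 0.00195, adjusted p = 0.00651) and 0.204-fold in PANDORA-seq (lower in 9 of 9, exact p = 0.00391, adjusted p = 0.00977). In the Mir23a cluster, Mir23a was 1.06-fold of its neighbour Mir27a in the traditional libraries (higher in 7 of 10, range 0.383 to 2.51, exact p = 0.742, adjusted p = 0.927). In PANDORA-seq Mir23a was 0.406-fold of Mir27a (lower in 7 of 9, exact p = 0.0234, adjusted p = 0.0391). That call was lost with 5 reads added in place of 0.5 (adjusted p = 0.0521), and without control replicate 1, 2, 3 or 4 or DCHP replicate 2, 3 or 4, where the adjusted p was between 0.0521 and 0.0781. With reads of all lengths, the log2 ratio of Mir23a to Mir27a in the traditional libraries was −0.56 in place of 0.08 (adjusted p = 0.0809). Of the 20 comparisons of these ratios between exposures or methods, 0 passed an adjusted p of 0.05. In the 9 pairs of both exposures together, the ratio of Mir23a to Mir27a was lower in PANDORA-seq in 8, 0.391-fold on average (exact sign-flip p = 0.00781, adjusted p = 0.0130), and that of Mir23b to Mir27b in 5 (exact p = 0.332, adjusted p = 0.415).

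**Figure D2:**
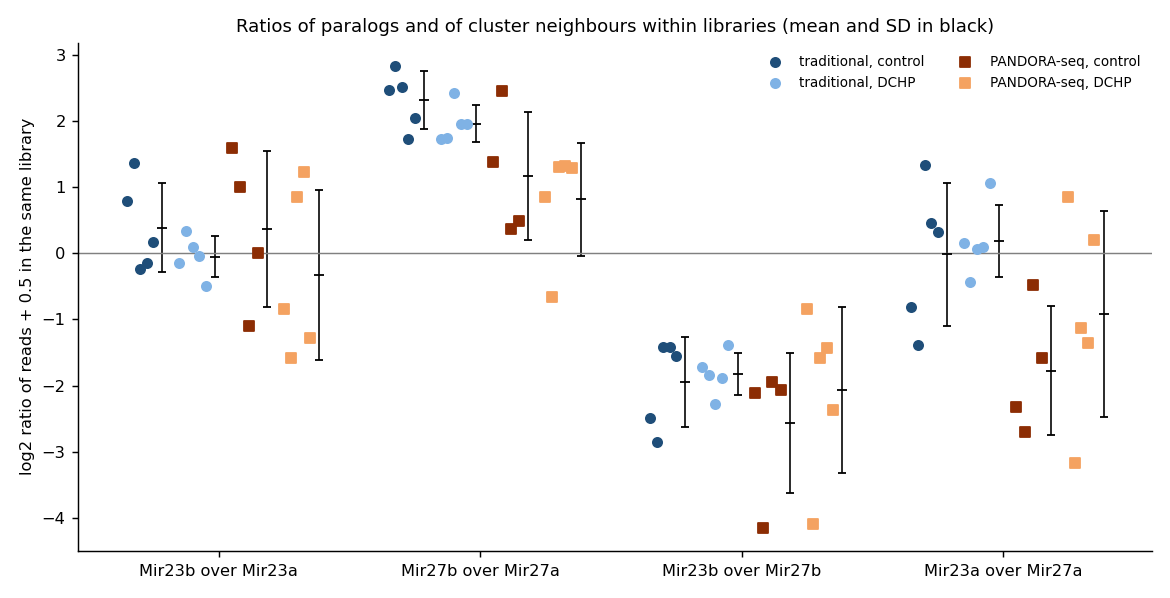
Log2 ratio of reads plus 0.5 within each library for the paralog pairs and the cluster neighbours, with the group mean and SD in black. Mir27b lies above Mir27a in all 10 traditional libraries and in 8 of 9 PANDORA-seq libraries, while Mir23b and Mir23a lie on both sides of 0.

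Across the traditional libraries the levels of Mir27a, Mir23b, Mir27b and the miR-24 pair were positively correlated, and Mir23a was not. On the log2 scale with group means removed (10 libraries), the miR-24 pair and Mir27b correlated with r = 0.95 (Spearman's rho 0.90), Mir27a and Mir27b with r = 0.87 (rho 0.95), and Mir23b and Mir27b with r = 0.82 (rho 0.75). The lowest of their 6 pairs was Mir27a with Mir23b, at r = 0.69 (rho 0.68). The 6 values ran from 0.51 to 0.91 without control replicate 2, and from 0.33 to 0.88 without the 2 libraries farthest from the group mean in the first of each pair. Mir23a ran against its own cluster neighbour Mir27a, with r = −0.69 (rho −0.72), and against Mir27b, with r = −0.65 (rho −0.75). Without control replicate 2 the Mir23a values were −0.57 and −0.48, and without the 2 libraries in which Mir23a deviated most they were −0.92 and −0.96. With Mir122 left out of the total they were −0.40 and −0.27, while the correlation of Mir27a with Mir27b was 0.94. These libraries share their total, in which Mir122 alone varied from 1.38% to 43.2%, so the values are given as a description.

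The hairpins whose log2 level, with group means removed, ran closest to the summed level of the 6 members over the 10 traditional libraries, of 139 with a mean of at least 100 RPM, were Mir199a-1, Mir199a-2, Mir26b, Mir103-2 and Mir103-1. Their Pearson's r was 0.99 for the first 3 and 0.98 for the others, and 0.97 to 0.99 without control replicate 2. Mir199a-1 and Mir199a-2 give the same mature strands, and Mir103-1 and Mir103-2 give the same 3p strand, so these 5 hairpins are not separate measurements.

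Exposure to DCHP was compared within each method by edgeR's quasi-likelihood test over all hairpins with at least 10 reads in at least 4 libraries. In traditional RNA-seq, 0 of 418 hairpins were called (0.00%), with calls set at a fold change over 2 and an adjusted p under 0.1. There were 29 at an unadjusted p below 0.05 and DESeq2 made 0 calls. None of the 6 members was called. The log2 fold changes of DCHP over control were 0.37 ± 0.32 (SE) for Mir23a, 0.03 ± 0.34 for Mir27a, −0.52 ± 0.54 for Mir24-2, −0.10 ± 0.28 for Mir23b, −0.43 ± 0.41 for Mir27b and −0.58 ± 0.54 for Mir24-1, with adjusted p from 0.812 to 0.966. The median over all tested hairpins was 0.17. For each member the control and DCHP libraries overlapped. Without control replicate 2 the estimate for Mir27b was 0.01, and those for Mir24-2, Mir24-1 and Mir23b were 0.13, 0.06 and 0.01. Without control replicates 1 and 2, the libraries with the most Mir122 and Mir126a and also the highest in Mir27b and the miR-24 loci, 0 of 390 hairpins were called. The estimates were then 0.47 for Mir27b, 0.55 for Mir27a, 0.95 for Mir24-2 and 0.91 for Mir24-1, with adjusted p of 0.396 to 0.408, and these directions follow from which libraries were left out.

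In PANDORA-seq, 0 of 180 hairpins were called (0.00%), with 9 at an unadjusted p below 0.05 and 0 by DESeq2. Mir27a and Mir27b were the only members with enough reads to enter the test. Mir27a had a log2 fold change of 0.46 ± 0.61 (SE) and Mir27b of −0.22 ± 0.60, both with an adjusted p of 0.988. Without control replicate 2 the value for Mir27b was 0.70 (adjusted p = 0.996). A test of whether the effect of DCHP differed between methods called 0 of 426 hairpins (0.00%), with 11 at an unadjusted p below 0.05 and 0 by DESeq2, and the members had interaction estimates of 0.22 to 1.18 on the log2 scale with an adjusted p of 0.9998.

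The methods were compared at each exposure with miRNA reads as the total. In control libraries 171 of 343 hairpins (49.9%) were called, 154 higher (44.9%) and 17 lower (4.96%) in PANDORA-seq, around a median log2 fold change of 1.096. The hairpins tested include many with Gm names, nearly all called higher, so this share and median are not those of the named miRNA genes alone. In PANDORA-seq libraries 11.2% to 53.2% of 20–24 nt hairpin reads were on the 453 hairpins of the total, against 97.9% to 99.4% in traditional libraries. No member had 10 reads in 4 PANDORA-seq libraries of a group, so each member entered the method tests through the traditional libraries, where it had more reads, and a lower value in PANDORA-seq is given as a description. This entry favours lower values in PANDORA-seq, so passing the threshold in these tests cannot decide whether a member is lower. Mir23b was at 0.324-fold of its traditional level (log2 −1.62 ± 0.55 SE) and was past the threshold on those terms. Its 4 PANDORA-seq control values, 172, 125, 128.4 and 98.8 RPM, rest on 1 to 3 reads each and lay below all 5 traditional ones. Mir23a had a log2 fold change of −1.29 ± 0.69 and was not called. Its estimate was −1.45 with the replicate number as a block and −2.70 without PANDORA-seq control replicate 3. It was −1.36 without traditional control replicate 2 and −1.43 with Mir122 left out of the total. Mir23a crossed the threshold in each of these settings, with the same limit. Mir27b was at −0.60 ± 0.63, and at −1.52, past the threshold with the same limit, without PANDORA-seq control replicate 2. Mir27a was at 0.25 ± 0.51 and Mir24-2 and Mir24-1 at −0.58 ± 1.23 and −0.26 ± 1.23. For Mir24-2, leaving out PANDORA-seq control replicate 2 sets the traditional libraries against 1 read of the miR-24 loci in all. That fit gives no usable fold. Mir128-1, a source of miR-128-3p, was called higher in PANDORA-seq, by 2.63-fold (adjusted p = 0.0317), and Mir128-2 was at 1.74-fold (adjusted p = 0.261). The reads of miR-128-3p are divided between these 2 genes.

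In DCHP libraries 151 of 376 hairpins (40.2%) were called, 147 higher (39.1%) and 4 lower (1.06%), around a median of 0.70. Hairpins with Gm names were again among those tested and called higher. None of the 6 members was called. Their log2 fold changes of PANDORA-seq over traditional RNA-seq ran from −0.44 ± 0.51 (SE) for Mir23b to 0.69 ± 0.42 for Mir27a, with adjusted p from 0.227 to 0.955. The direction of most calls depended on the total. With TMM factors, 109 hairpins were higher and 219 lower in control libraries and 121 and 245 in DCHP libraries, with DESeq2 107 and 201, and 121 and 241, with all 20–24 nt hairpin reads as the total 148 of 265 and 161 of 287 calls were lower, and with all reads as the total 9 were higher and 251 lower, and 11 and 285. With TMM factors or with all reads as the total, all 6 members were called lower in PANDORA-seq at both exposures. So were most hairpins tested: 219 of 343 with TMM factors and 251 of 343 with all reads in control libraries. In DCHP libraries these were 245 of 376 and 285 of 376. Relative to all reads, the 6 members were lower in PANDORA-seq, with log2 fold changes of −7.36 to −9.11 in control and −6.13 to −7.33 in DCHP libraries. Summed, they were at 74.5 to 872 per 1000000 reads of all kinds in traditional and at 0.254 to 3.24 in PANDORA-seq libraries, with no overlap. The miRNA reads as a whole did not overlap either, at 3.96% to 15.6% of all reads in traditional and 0.0229% to 0.106% in PANDORA-seq libraries. The gap is therefore not particular to the members.

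The arms were used unequally. Of the 20–24 nt reads of Mir23a in the traditional libraries, 7 of 9157 were from the 5p arm, 0.0764% (95% exact interval 0.0307 to 0.157, counting error alone). Of these 7 reads 4 came from DCHP replicate 2, 8 of 10 libraries had none, and without that library the share was 0.0337%. For the other members the pooled share leans on control replicate 2, which held 31202 of the 55630 reads of Mir27b, so the mean over libraries is given first. It was 1.20% ± 0.554 (SD, n = 10) for Mir27b, with 0.649% pooled and 1.25% pooled without that library. For Mir23b it was 1.36% ± 1.21 (0.935% pooled, 1.13% without). The order of Mir27b and Mir23b in the pooled shares therefore depended on 1 library. It was 13.2% ± 5.05 for the miR-24 pair (12.9% pooled, 13.9% without) and 30.98% ± 13.8 for Mir27a (19.98% pooled, 31.4% without).

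In percentage points, the 5p share of Mir27a had the widest range. It was 28.4% ± 16.7 (SD, n = 5) in traditional control and 33.5% ± 11.5 (n = 5) in traditional DCHP libraries, and ranged from 5.22% in control replicate 2 to 49.1% in DCHP replicate 1. Its 5p arm ranged from 28.1 to 174 RPM and its 3p arm from 102 to 510 RPM. In PANDORA-seq 27 of 82 Mir27a reads were from the 5p arm, 32.9% (interval 22.9 to 44.2), and 3 of 181 Mir27b reads, 1.66% (0.343 to 4.77). Of the 20 comparisons of 5p to 3p ratios between exposures or methods, 0 passed an adjusted p of 0.05 (lowest 0.0635, exact permutation test). The lowest values were for Mir23a, Mir23b and Mir27b between methods, where the 5p arm held 0 to 2 reads in each PANDORA-seq library.

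**Figure D3:**
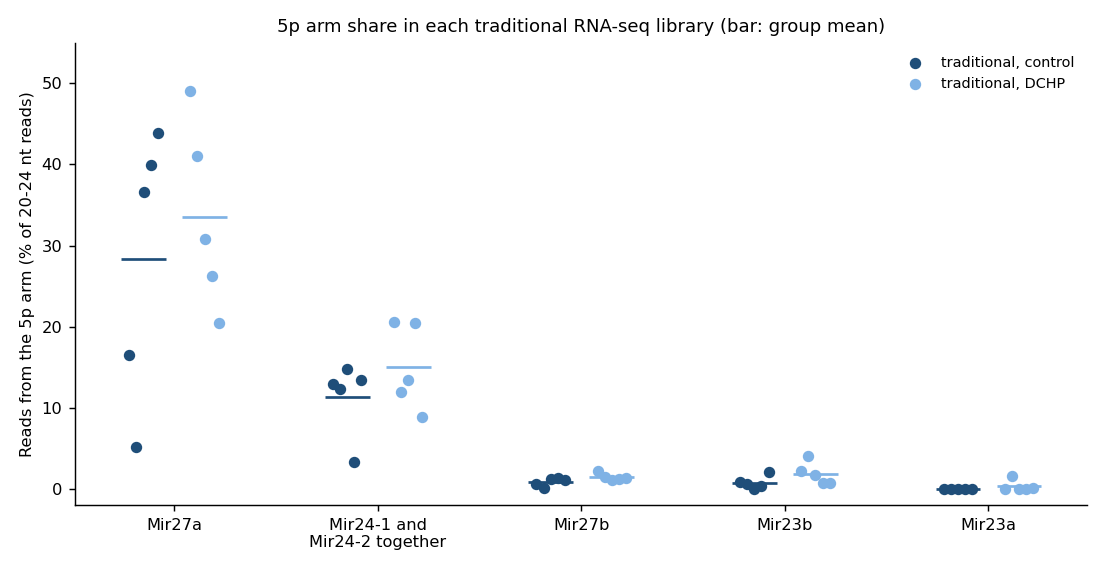
Share of 20–24 nt reads from the 5p arm in each of the 10 traditional libraries, with group means as bars. Mir27a ranges from 5.22% to 49.1%, while Mir23a, Mir23b and Mir27b stay below 5%.

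The strands differed in length. In the traditional libraries, 20–24 nt reads were 82.4% ± 6.14 (SD, n = 10) of the reads of all lengths on Mir23b, 66.8% ± 6.46 on Mir23a, 58.8% ± 8.31 on Mir27b, 48.8% ± 4.30 on the miR-24 pair and 42.9% ± 4.44 on Mir27a. Over the reads of all libraries together, on which the total was defined, Mir27a was the only member below 50% and so not among the 453 hairpins. Reads of 18–19 nt made up 53.5% ± 4.27 of Mir27a, and reads of 18 nt or less end before the base that separates miR-27a-3p from miR-27b-3p. Reads that fit both were divided equally, and those of 18 nt came to 5865.5 on Mir27a and 5891.5 on Mir27b. Part of the short share of Mir27a may therefore be miR-27b-3p. With reads of all lengths the log2 ratio of Mir27b to Mir27a in the traditional libraries was 1.69 in place of 2.13, with the same adjusted p. By construction, the division of the short reads draws the levels of these 2 genes together. It also enters the ratio of Mir23a to Mir27a with reads of all lengths.

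The commonest forms in the traditional libraries are shown because they give the ends of the strands: the leading miR-27a-3p and miR-27b-3p forms both ended at base 20, and those of the miR-23 paralogs at different bases. Capitals mark a base that does not match the hairpin.
miR-23a-3p, 42.4% of 20–24 nt reads of the arm: atcacattgccagggatttc
miR-23a-3p, 28.5%: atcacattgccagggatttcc
miR-27a-3p, 69.7%: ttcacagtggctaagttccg
miR-27a-3p, 10.2%: ttcacagtggctaagttccgA
miR-27b-3p, 60.6%: ttcacagtggctaagttctg
miR-24-3p, 36.7%: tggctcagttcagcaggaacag
miR-24-3p, 28.5%: tggctcagttcagcaggaaca
miR-27a-5p, 77.4%: agggcttagctgcttgtgagc
The commonest miR-23b-3p form was 23 nt long (40.6%), and a form of 20 nt made up 22.5%, while 20 and 21 nt forms led for miR-23a-3p. Without control replicate 2 the 23 and 20 nt forms of miR-23b-3p were at 35.6% and 28.04%, and the 21 nt form of miR-24-3p led, with 35.1% against 33.1% for the 22 nt form. In PANDORA-seq the 20 nt form of miR-23b-3p led (50.8%, 16 reads, against 19.05%, 6 reads, for 23 nt). The 21 nt form of miR-24-3p was at 43.5% and the 22 nt form at 34.8%, on only 5 and 4 divided reads at each locus. In the traditional libraries the commonest start took 95.004% to 99.4% of the reads of each 3p arm, and in PANDORA-seq 92.9% to 100%. The 5p arm of Mir23b varied more, with 45.1% ± 35.2 (SD, n = 9) at its commonest start, on 106 reads.

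**Figure D4:**
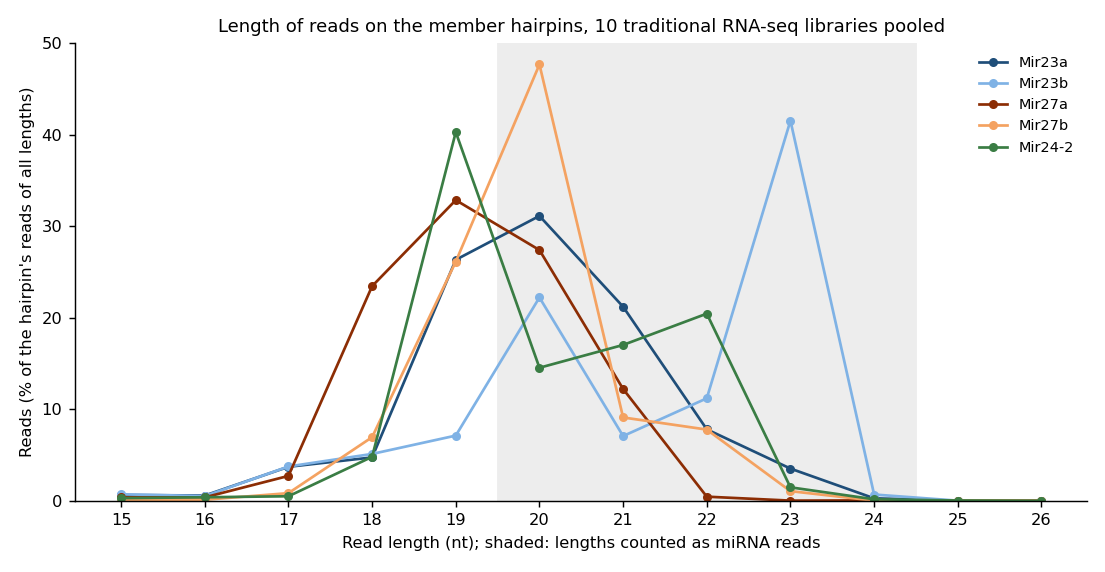
Length of all reads on the member hairpins in the 10 traditional libraries pooled, as a percentage of the reads of each hairpin, with the counted lengths shaded. Mir23b peaks at 23 nt, Mir27b at 20 nt, and Mir27a and Mir24-2 at 19 nt.

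Among the 3p strands, the last base differed from the hairpin most often in those of miR-27. It was a mismatch in 15.9% ± 5.17 (SD, n = 10) of miR-27a-3p reads and 10.2% ± 1.82 of miR-27b-3p reads in the traditional libraries, against 5.62% ± 3.27 for miR-24-3p, 4.42% ± 1.37 for miR-23a-3p and 3.45% ± 1.35 for miR-23b-3p. Inner positions mismatched in 0.487% to 0.751% of reads. The added base was mainly A in miR-27a-3p, in 11.9% ± 5.34 of reads against 3.57% ± 1.40 in miR-27b-3p, and miR-27a-3p was the higher in 10 of 10 libraries. In miR-27b-3p it was mainly U, read as T, in 6.22% of reads pooled. In PANDORA-seq the order in miR-27a-3p was the reverse, with T added in 10.9% and A in 3.64% of 55 reads.

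Because 1 base separates them, reads of miR-27b-3p with an error at position 19 count as miR-27a-3p. At 6 other T positions of the 20 nt miR-27b-3p form, T was read as C in 0.523% to 1.36% of reads (median 0.799%). At the median rate this corresponded to 4.78% of the reads of the 20 nt miR-27a-3p form, and at the highest rate to 8.12%.

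Control replicate 2 stood apart in both methods. In traditional RNA-seq its Mir27b level was 2.79-fold the mean of the other control libraries, that of the miR-24 pair 3.72-fold and that of Mir27a 1.83-fold, while Mir23b was at 1.39-fold, Mir23a at 0.593-fold and the median over the 418 tested hairpins at 0.529-fold. In PANDORA-seq Mir27b was at 4.21-fold, Mir27a at 1.34-fold and Mir23b at 0.942-fold on 1 to 3 reads a library, beside a median of 0.658-fold over 180 hairpins. Mir23a was at 0.319-fold there, on 0 to 7 reads a control library, and replicate 2 was not the lowest of them. The 2 libraries with this number correlated in their deviations from the group means over 176 hairpins (r = 0.77). They also held the highest Mir122 and Mir126a shares of their method, and the traditional one the lowest summed spermatogenic and epididymal markers of the 10 traditional libraries, 767 and 6024 RPM. The PANDORA-seq one was not the lowest of its controls in these sums, at 2088 and 9937 RPM against minima of 1584 and 9801. The smooth muscle list summed to 34245 RPM in the traditional one, below the control median of 51313. In the PANDORA-seq one it summed to 27975 RPM, the highest of its controls. The leukocyte list was also highest in traditional control replicate 2, at 327 RPM against at most 150.1 in the DCHP libraries and a median of 74.998 in the controls, most of it Mir142 (263 RPM), while Mir223 (18.2) was the lowest of the 10 libraries. Of the red blood cell list, Mir451a (365 RPM) and Mir144 (41.2) were highest there and Mir486 (267) was the lowest, and the list summed to 673 RPM, the median of the controls. Traditional control replicate 1, the second in Mir122 and Mir126a, was also second in Mir27b and the miR-24 pair. With Mir122 left out of the total, Mir27b in these libraries was at 6741 (replicate 2) and 3285 (replicate 1) RPM, above 896 to 2200 in the other 8 traditional libraries. High Mir122 did not always go with high members. DCHP replicate 2 held 21.6% Mir122 in traditional RNA-seq and 25.6% in PANDORA-seq. Its members summed to 2265 RPM, the lowest of the traditional DCHP libraries, and to 1663 RPM in PANDORA-seq. That lowest place depended on the total. With Mir122 left out, its members were at 2887 RPM in traditional RNA-seq, within the 2395 to 3690 of the other traditional DCHP libraries. In PANDORA-seq they were then at 2234 RPM. The part of other cells in these levels was not tested, and more cells of a type cannot be told apart from more RNA per cell.

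**Figure D5:**
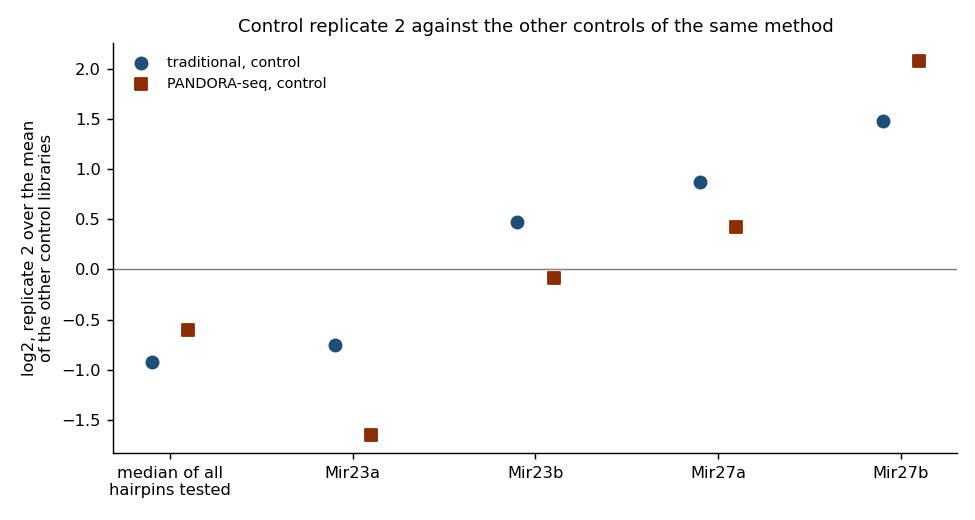
Control replicate 2 over the mean of the other control libraries of its method, on the log2 scale, for the median of all tested hairpins and for the members with separate reads. Mir27b is the highest in both methods. Mir23a is below 0 in both, as is the median of all tested hairpins. Mir23a lies above that median in traditional RNA-seq (−0.753 against −0.919) and below it in PANDORA-seq (−1.65 against −0.604). The PANDORA-seq value rests on 0 to 7 reads of Mir23a in each control library.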

How the data were processed

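The authors deposited counts: for each of the 19 libraries, every distinct cleaned read of 15–45 nt with its whole-number count, not normalized and with no molecular identifiers, made with a small RNA kit from gel-cut RNA of 15–50 nt. The submitters' processing notes name mm10, and adapter settings are not given in the sources used here. Each read was matched to 2198 of 2202 GENCODE hairpins (GRCm38, without 4 that overlap tRNA loci), sense, with at most 1 mismatch, which misses reads with longer tails. Best matches were kept and reads shared by several hairpins were divided equally and rounded for the fits. The 20–24 nt window excludes shorter trimmed strands.

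Hairpins with at least 10 reads in at least 4 libraries entered a quasi-likelihood fit (edgeR 4.0.16, R 4.3.3) with miRNA reads as library size. Calls needed a fold change over 2 and an adjusted p (Benjamini-Hochberg) under 0.1. The SE of an edgeR log2 fold change is its absolute value divided by the square root of the F statistic, an approximation. Fits used only the groups compared, and the interaction used all 4. Ratios (0.5 read added) were tested with two-sided exact sign-flip or permutation tests in Python 3.11.15, adjusted over 10, 20 and 20 tests. Intervals are exact (95%) and cover counting error only. Scripts were tested on simulated data. Alternatives were other totals, TMM, DESeq2 1.42.0, no filter, exact matches, all lengths, 5 reads added, a replicate block and each library left out. The total without Mir122, the fit without control libraries 1 and 2 and the pairs over both exposures were chosen after seeing the data. Named genes were the members, Mir128-1 and Mir128-2, marker hairpins and the 5 hairpins most like the summed members. Forms of at least 10% of an arm could be shown. Members and lists were chosen with earlier results of these data known.

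Same-numbered libraries of the 2 methods deviated together over 176 hairpins (r = 0.291 to 0.765 in 4 control pairs, 0.330 to 0.581 in 5 DCHP pairs), so their numbers were taken as pairs. The best match was the own number in 3 of 4 and 4 of 5. This rests on the counts, not on a label. Libraries of a group differed by more than sampling noise (smallest chi-square per degree of freedom 13.9).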

Additional observations from a re-analysis of the deposited data

Results flagged for a closer look

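Dixon's test was applied to 67 sets of 4 or 5 libraries (the level of each member, the summed level and the log2 ratios in each group), and 7 values lay far from the others of their group, where chance gives about 1 in 20. In PANDORA-seq control replicate 2, Mir24-2 and Mir24-1 each had 292.28 RPM (3.5 reads, the divided reads of miR-24-3p), against 0 to 24.7 in the other 3 control libraries. In the same library the 6 members summed to 4175 RPM, against 1086 to 1547, and the log2 ratio of Mir23b to Mir27b was −4.15, against −2.12 to −1.95. In PANDORA-seq DCHP replicate 2, the log2 ratio of Mir27b to Mir27a was −0.67 on 8 and 13 reads, against 0.85 to 1.31 in the other 4. In PANDORA-seq DCHP replicate 4, the log2 ratio of the 5p arms of Mir24-1 and Mir24-2 was −1.58, which is 1 read of Mir24-2, where the other libraries had none. In traditional control replicate 4, the log2 ratio of the 5p to the 3p arm of the miR-24 pair was −4.55, on 2 reads of the 5p arm, against −2.83 to −2.51 in the other 4.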

How the results depend on the processing

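Over all alternatives, 0 members were called for DCHP in either method. The count of hairpins called for DCHP in PANDORA-seq was 1 with no filter on low counts and 0 to 2 with a library left out, and in traditional RNA-seq it was 1 with exact matches. Between methods, in control and DCHP libraries, it was 328 and 366 with TMM factors, 308 and 362 with DESeq2, 265 and 287 with all 20–24 nt hairpin reads as the total, 260 and 296 with all reads, 531 and 465 with no filter, and 341 and 405 with reads of all lengths. Of the 20 arm comparisons, 8 passed with 5 reads added, 5 with exact matches and 0 to 7 with a library left out, the 7 without PANDORA-seq DCHP replicate 5. The 5p arms of Mir23a, Mir23b, Mir27b and the miR-24 pair held 0 to 2 reads in each PANDORA-seq library. By construction, the reads added draw such ratios toward 1, so these counts cannot decide whether arm use differs between methods. The summed level of the members was 519 and 717 per 1000000 of all 20–24 nt hairpin reads in PANDORA-seq control and DCHP, and 3783 and 4406 in PANDORA-seq and traditional DCHP with reads of all lengths.

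With the replicate number as a block, 183 (160 higher, 23 lower) and 154 (148 and 6) hairpins were called between methods, and 0 for the interaction. The ratio and arm comparisons could not pass, since the exact test over 5 or 4 pairs cannot go below 0.0625 or 0.125. Over the 9 pairs of both exposures together, 3 of 5 ratios and 4 of 5 arm comparisons passed. The arm ratio of the miR-24 pair passed narrowly (exact sign-flip test, adjusted p = 0.0488). Its exact p rose to as much as 0.0781 without 1 pair. The 4 arm comparisons and the ratio of the miR-24 5p arms rest on 0 to 2 reads of the 5p arm in each PANDORA-seq library, and so on the 0.5 read added. Beside Mir23a in the controls, the block changed no other member's call. For control against DCHP, same-numbered libraries did not deviate together (r from −0.319 to 0.262 in PANDORA-seq and −0.386 to 0.210 in traditional RNA-seq, and 0 of 4 and 0 of 5 correlated best with their own number). The block gave 0 calls in both and a log2 fold change of 0.0127 for Mir24-2 in traditional RNA-seq.

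Some estimates changed sign under a setting. For DCHP in traditional RNA-seq, Mir27a was at −0.53 with TMM factors, −0.37 with all reads as the total, −0.25 without Mir122, −0.47 with DESeq2 and −0.0888 with all lengths, and Mir23b at 0.0585 with all lengths. With a library left out, the estimates were −0.15 to 0.26 for Mir27a, −0.78 to 0.13 for Mir24-2, −0.17 to 0.0125 for Mir23b, −0.61 to 0.0124 for Mir27b and −0.82 to 0.0587 for Mir24-1. Without control libraries 1 and 2, Mir24-2, Mir24-1, Mir27b and Mir23b were at 0.95, 0.91, 0.47 and 0.0923. For DCHP in PANDORA-seq, Mir27b was at 0.0558 with all hairpin reads as the total, 0.31 with all reads, 0.0785 with all lengths, and −0.50 to 0.70 with a library left out. Between methods, Mir27a in controls was at −3.94 with TMM factors, −1.81 with all hairpin reads, −7.36 with all reads, −4.59 with DESeq2 and −0.33 with all lengths. In DCHP libraries Mir27a was at −2.85, −1.03, −6.13 and −2.64 under the first 4 of these and Mir24-1 at −3.08, −1.36, −6.38 and −2.93, and with all lengths Mir24-1 was at −0.0031 and Mir24-2 at 0.29. With a library left out, the method estimates were −10.72 to 0.0574 for Mir24-2 and −10.40 to 0.38 for Mir24-1 in controls, and −1.02 to 0.16 and −0.65 to 0.53 in DCHP libraries. The interaction estimates were −0.42 to 10.20 for Mir24-2, −0.37 to 10.26 for Mir24-1 and −0.21 to 1.14 for Mir27b. The extreme values come without PANDORA-seq control replicate 2, which leaves 1 read of the pair in that group. The log2 ratio of Mir23b to Mir23a was −0.14 with all lengths in traditional RNA-seq, and in PANDORA-seq 0.0547 with exact matches, 0.0468 with reads of 1 hairpin only, and −0.22 to 0.18 with a library left out. That of Mir23a to Mir27a in traditional RNA-seq was −0.56 with all lengths and −0.0550 to 0.25 with a library left out, and that of the miR-24 5p arms in PANDORA-seq −0.20 to 0. The causes were not tested. DESeq2 gave no adjusted p for Mir23b between methods in controls. Depth limits every PANDORA-seq value of a member.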
